A study of Mus musculus with 8 samples.

Results

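The 7 MHC class II genes H2-Aa, H2-Ab1, H2-Eb1, H2-DMa, H2-DMb1, Cd74 and Ciita were followed in whole mouse liver on 1-colour Agilent arrays. They were chosen by symbol: 11 of the 56605 probes on the array carry a RefSeq accession of 1 of these genes, 4 for H2-Ab1, 2 for Ciita and 1 for each of the others. The series asked how the transcriptional repressor Bcl6 bears on the difference between male and female liver. Its 4 groups were male mice labelled liver-specific Bcl-6 deficient (male KO), male wild type (male WT), female mice labelled liver-specific Bcl-6 deficient (female KO) and female wild type (female WT), with n = 2 arrays each. All mice were 10 to 11 weeks old. The sources used here name no allele, no promoter driving the deletion and no strain, and do not say whether each array is a separate animal. The p-values therefore reflect only how far these arrays spread, which may be technical.

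MHC class II molecules display peptides from the endosome to CD4+ T cells. An alpha chain (H2-Aa) pairs with a beta chain (H2-Ab1), and H2-Eb1 is the beta chain of the second mouse molecule. Cd74, the invariant chain, occupies the groove until the DM heterodimer (H2-DMa and H2-DMb1) helps to exchange its remnant for a peptide. The DO heterodimer (H2-Oa and H2-Ob), found mostly in B cells, restrains DM. Ciita is the coactivator that turns the whole set on: it does not bind DNA itself but docks on the RFX, CREB and NF-Y proteins that sit on the X and Y boxes of class II promoters. In liver, class II is known from B cells, dendritic cells, Kupffer cells and sinusoidal endothelium, and hepatocytes carry little of it at rest.

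Matches to the letters of these boxes are shown for 3 members and for H2-Oa, the other class II gene that passed the test described below. The sequences are the 150 bases before the gene start, 5′ to 3′ on the gene's strand, from RefSeq (GRCm38.p6). Capitals mark matches to the Y box core GATTGG and to a longer X box consensus upstream of it, both searched on either strand. The matches do not overlap. They lie at chr17:34287824-34287973 (minus strand) for H2-Aa, chr17:34305717-34305866 (plus) for H2-Eb1, chr17:34153041-34153190 (plus) for H2-DMb1 and chr17:34092229-34092378 (plus) for H2-Oa.
H2-Aa: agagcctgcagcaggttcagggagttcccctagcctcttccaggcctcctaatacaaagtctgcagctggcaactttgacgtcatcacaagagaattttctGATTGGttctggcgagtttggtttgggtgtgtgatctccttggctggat
H2-Eb1: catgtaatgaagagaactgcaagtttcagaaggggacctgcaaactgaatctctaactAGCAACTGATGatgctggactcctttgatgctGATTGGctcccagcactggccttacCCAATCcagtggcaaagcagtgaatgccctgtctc
H2-DMb1: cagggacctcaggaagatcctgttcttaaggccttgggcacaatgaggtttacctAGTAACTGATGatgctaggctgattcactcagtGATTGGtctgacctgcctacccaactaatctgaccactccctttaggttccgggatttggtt
H2-Oa: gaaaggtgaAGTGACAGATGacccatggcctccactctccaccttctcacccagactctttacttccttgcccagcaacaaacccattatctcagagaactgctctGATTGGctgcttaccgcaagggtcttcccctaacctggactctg

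In these 4 sequences the Y box core began 49 bases before the start of H2-Aa, 60 bases before that of H2-Eb1, 62 before that of H2-DMb1 and 44 before that of H2-Oa. H2-Eb1 held a second copy on the other strand at 35 bases. A match to the X box consensus lay upstream of the Y box core at 92 bases in H2-Eb1, 95 in H2-DMb1 and 141 in H2-Oa. The H2-Oa match lay much farther from its Y core than those of H2-Eb1 and H2-DMb1. H2-Aa had no match to this consensus, and whether any match is a working box was not tested. Of the 7 members, H2-Aa, H2-Eb1, H2-DMa and H2-DMb1 had an entry in the promoter table, 5 entries in all because H2-DMa has 2. Within 250 bases, the Y core was found in 4 of these 5 entries against 14.6% of all 32851, the X box in 2 of 5 against 0.444%, and a Bcl6-type motif (TTCCTNGAA, either strand) in 0 of 5 against 1.31%. The X box consensus was settled after its matches in these promoters were seen, so its share in these entries is no test. A missing match says only that these letters are not in the window.

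On the arrays, every one of the 11 probes was well above background on all 8 arrays, and no spot was saturated. Values are log2 of the processed signal relative to the array's 75th percentile. They compare 1 probe between arrays and say nothing on which gene is more abundant. An array had 33677 to 36459 spots above background, and precision is limited by there being 2 arrays a group. After the filter on dim probes, limma tested 26551 genes and unnamed transcripts, all 7 members among them, and Benjamini-Hochberg adjusted p under 0.05 is called a change here. As an alternative setting, normexp background correction was also tried. It adds an offset of 50 units to every spot, which by itself shrinks the log2 differences of dim probes. Shrinkage under normexp is therefore no separate result on a gene. The 8 arrays shared a slide and a scan time, with the females in its upper row and the males in its lower row. Row and sex therefore cannot be told apart. The male KO arrays lay in columns 2 and 3 and the male WT arrays in columns 1 and 4. In males, genotype and inner or outer column thus cannot be told apart either. The female KO arrays lay in columns 1 and 3 and the female WT arrays in columns 2 and 4. The single Bcl6 probe did not check the labels: it read 4.01 and 3.53 in male KO against 3.48 and 2.41 in male WT, and 1.15 and 3.93 in female KO against 2.48 and 0.39 in female WT (adjusted p = 0.670 and 0.557 for males and females). The sources used here do not place it inside or outside the deletion. Every KO direction therefore follows the labels.

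Ciita, the master coactivator, was the member that changed. In males it read -0.04 and -0.15 in the arrays labelled KO, against -1.21 and -1.52 in the WT arrays. In females it read -0.01 and -0.13 in the arrays labelled KO, against -1.09 and -0.98 in the WT arrays. All 4 KO arrays thus lay above all 4 WT arrays, and the KO arrays of both sexes sat within a narrow band. As processed intensities, these were 184 and 169 units against 94.1 and 62.9 in males, and 198 and 186 against 97.7 and 111 in females. The KO minus WT difference was 1.27 ± 0.14 (SE, limma, n = 2 arrays a group) on the log2 scale in males, a 2.42-fold rise with adjusted p = 0.00442. It was 0.96 ± 0.14 in females, a 1.95-fold rise with adjusted p = 0.0171. The second Ciita probe gave 1.32 ± 0.15 in males (adjusted p = 0.00566) and 0.87 ± 0.15 in females (adjusted p = 0.0313) when limma tested each probe on its own. In whole liver, more class II-positive cells and more Ciita RNA per cell cannot be told apart.

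The male call held in 18 of 18 other settings, with differences from 0.83 to 1.43, the lowest of them with normexp background correction. The female call held in 12 of 18. It was lost without the filter on dim probes (adjusted p = 0.0615), in a fit of only the female groups (0.0618), and without male KO replicate 1 (0.0511), female KO replicate 1 (0.0965), female KO replicate 2 (0.0590) or female WT replicate 1 (0.0518), while the difference stayed between 0.70 and 1.03 in all 18.

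**Figure D1:**
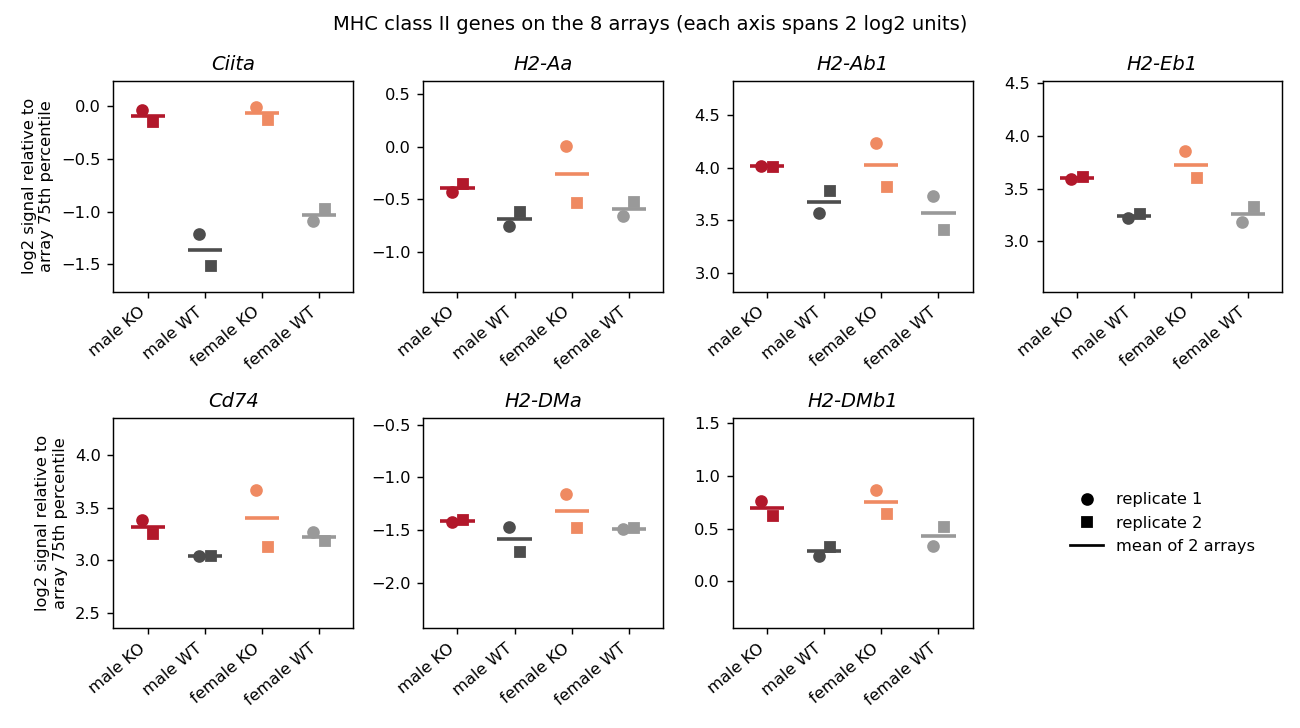
Log2 signal of the 7 MHC class II genes relative to each array's 75th percentile (vertical axes, each spanning 2 log2 units) in male KO, male WT, female KO and female WT, with circles for replicate 1, squares for replicate 2 and a line at the mean of 2 arrays. Ciita lies near 0 on all 4 KO arrays and between -1.52 and -0.98 on the WT arrays, and female KO replicate 1 is the highest array for every gene shown.

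The 3 chain genes were higher on every male KO array than on either male WT array, by amounts that did not pass the test. H2-Aa, the alpha chain, read -0.43 and -0.35 in male KO against -0.76 and -0.62 in male WT. H2-Ab1, its beta chain, read 4.01 and 4.01 in male KO against 3.57 and 3.78 in male WT. H2-Eb1 read 3.60 and 3.61 in male KO against 3.22 and 3.26 in male WT, with the arrays of each group close together. The differences were 0.30 ± 0.19 for H2-Aa, 0.34 ± 0.18 for H2-Ab1 and 0.36 ± 0.12 for H2-Eb1 (SE), or 1.23-, 1.26- and 1.28-fold, with adjusted p = 0.361, 0.299 and 0.123 in limma. For H2-Eb1 the 95% interval ran from 0.07 to 0.65, and for H2-Ab1 from -0.11 to 0.79. The other 3 probes of H2-Ab1 gave male differences from 0.26 to 0.35.

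In females the same 3 genes were spread by 1 array. H2-Aa read 0.00 and -0.53 in female KO against -0.66 and -0.53 in female WT, so that the groups overlapped. H2-Ab1 read 4.23 and 3.81 in female KO against 3.73 and 3.41 in female WT. H2-Eb1 read 3.86 and 3.60 in female KO against 3.19 and 3.33 in female WT. For these last 2 genes the groups did not overlap, and in all 3 genes female KO replicate 1 was the higher KO array. The differences were 0.33 ± 0.19 for H2-Aa, 0.45 ± 0.18 for H2-Ab1 and 0.47 ± 0.12 for H2-Eb1 (SE), with adjusted p = 0.323, 0.199 and 0.0800 in limma. Without female KO replicate 1 they were 0.06, 0.24 and 0.34. H2-Eb1 passed in females under normexp background correction (adjusted p = 0.0395), and in none of the other 16 settings.

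Cd74 and the DM genes, which guard and load the groove, did not pass the test in either sex. Cd74 read 3.38 and 3.25 in male KO against 3.04 and 3.05 in male WT, and 3.67 and 3.13 in female KO against 3.27 and 3.18 in female WT, where the groups overlapped. H2-DMa read -1.42 and -1.41 in male KO against -1.47 and -1.71 in male WT, and -1.16 and -1.48 in female KO against -1.49 and -1.48 in female WT. H2-DMb1 read 0.76 and 0.62 in male KO against 0.24 and 0.33 in male WT, and 0.86 and 0.64 in female KO against 0.34 and 0.52 in female WT. For H2-DMa the second female KO array was level with the WT arrays. The male differences were 0.27 ± 0.18 for Cd74, 0.17 ± 0.14 for H2-DMa and 0.41 ± 0.13 for H2-DMb1 (SE), with adjusted p = 0.395, 0.490 and 0.107 in limma. The female differences were 0.17 ± 0.18, 0.17 ± 0.14 and 0.32 ± 0.13, with adjusted p = 0.601, 0.508 and 0.193. Without female KO replicate 1, the female differences were -0.10 for Cd74, 0.01 for H2-DMa and 0.21 for H2-DMb1.

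Counted together, 1 of 7 members rose in males and 1 of 7 in females, Ciita both times, and none fell. Of all features tested, 6.01% rose and 4.56% fell in males, and 3.48% rose and 2.49% fell in females. In males, 7 of 7 members had non-overlapping arrays with KO above WT, against 28.9% of all features. In females 5 of 7 did, against 27.8%. H2-DMa is among these 5 by a hair, at -1.4790 on female KO replicate 2 against -1.4793 on female WT replicate 2. The median difference over the members was 0.34 in males and 0.33 in females, against -0.02 in males and 0.00 in females over all features. For the 6 members other than Ciita, the male differences ran from 0.17 to 0.41 (1.13- to 1.33-fold) and the female ones from 0.17 to 0.47 (1.12- to 1.39-fold). None of these 12 comparisons passed the test at this number of arrays, and their 95% intervals together spanned -0.27 to 0.90.

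**Figure D2:**
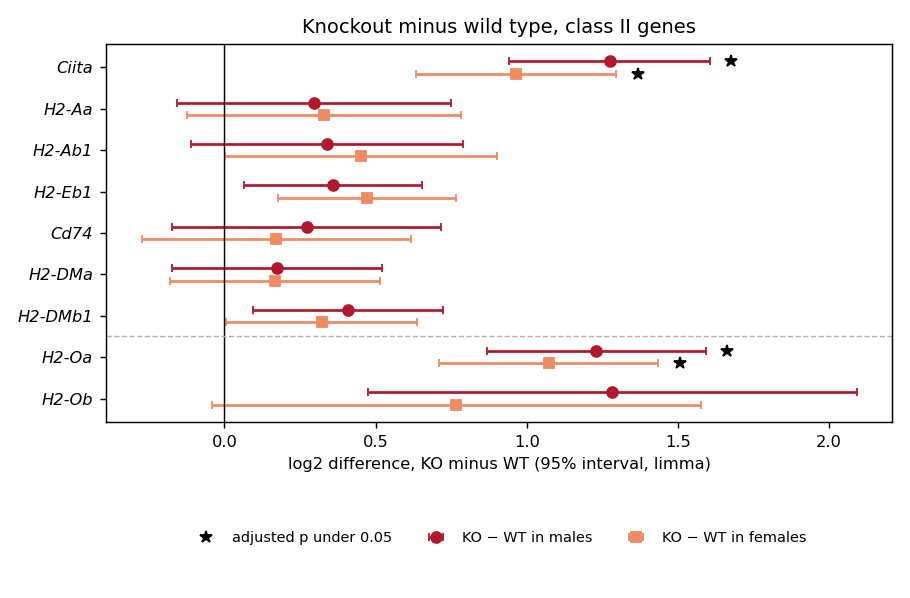
Log2 difference between KO and WT (horizontal axis) for the 7 members and, under the dashed line, H2-Oa and H2-Ob, with males as circles above females as squares and bars for limma's 95% interval. Stars mark adjusted p under 0.05, reached by Ciita (1.27 in males, 0.96 in females) and H2-Oa (1.23 and 1.07), while the other members lie between 0.17 and 0.47.

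Female KO replicate 1 held the highest of the 8 values for 7 of 7 members, and for 12.8% of all features tested. Within female KO, replicate 1 exceeded replicate 2 by 0.54 for Cd74, 0.53 for H2-Aa, 0.42 for H2-Ab1, 0.32 for H2-DMa, 0.25 for H2-Eb1, 0.23 for H2-DMb1 and 0.13 for Ciita. In the other 3 groups the 2 arrays differed by at most 0.32 for any member. The summed linear level of the marker genes in replicate 1 and replicate 2 was 4.30 and 4.10 for 14 B cell markers, 188 and 221 for 17 dendritic cell markers, and 150 and 170 for 24 Kupffer cell and macrophage markers. Their part in the spread of the members was not tested.

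**Figure D3:**
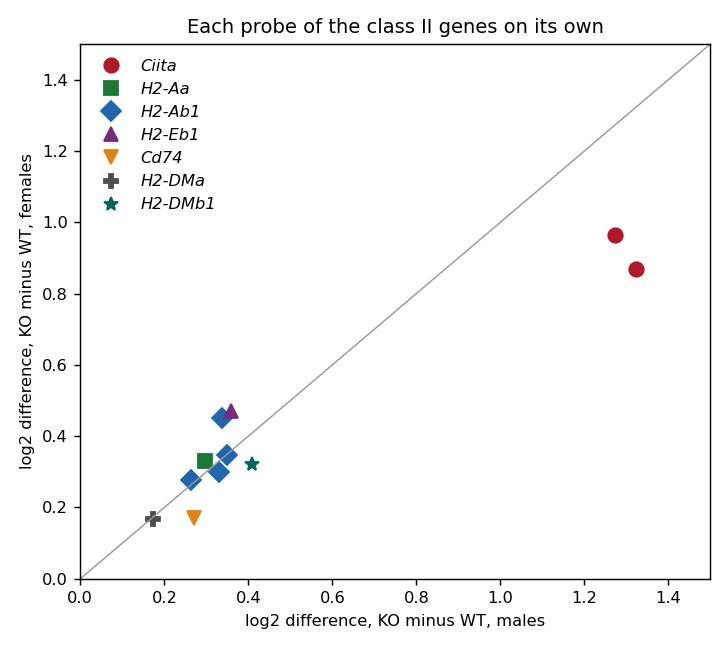
Log2 difference between KO and WT for each of the 11 probes, in males (horizontal axis) and females (vertical axis), with the diagonal marking equal differences. Both Ciita probes stand at 1.27 and 1.32 in males and at 0.96 and 0.87 in females, and the other 9 probes, the 4 of H2-Ab1 included, lie between 0.17 and 0.47 in both sexes.

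Between the sexes, no member passed the test in either genotype. These comparisons use the same arrays as those above. In WT livers, where 0.546% of all features were higher and 0.365% lower in males, the members' male minus female differences ran from -0.33 to 0.10. Ciita had the largest of these in size, at -0.33 ± 0.14 (SE), with unadjusted p = 0.0497 and adjusted p = 0.283 in limma. Its male WT arrays at -1.21 and -1.52 lay below the female WT arrays at -1.09 and -0.98. Cd74 (-0.18) and H2-DMb1 (-0.14) also had male WT arrays below the female ones, so that 3 of 7 members did, against 23.8% of all features. The remaining 4 overlapped. In KO livers, where 0.0527% of all features were higher and 0.0188% lower in males, 7 of 7 members overlapped between the sexes (21.4% of all features were higher in males without overlap and 19.9% lower), with differences from -0.13 to -0.01. At an unadjusted p under 0.05, the members counted 1 of 7 in WT livers (17.6% of all features) and 0 of 7 in KO livers (5.99%).

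The KO difference itself was set between the sexes by the interaction term, past which 0 of 7 members came (0.2% of all features passed); 0 members had an unadjusted p under 0.05, against 8.49% of all features. For Ciita the male difference exceeded the female one by 0.31 ± 0.19 (SE, 95% interval -0.16 to 0.78, adjusted p = 0.734 in limma). For the other 6 members the interaction lay between -0.11 and 0.10, with intervals reaching at most -0.75 and 0.73. For these 6 members the intervals include values larger than their own KO differences.

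Of 6 other class II and loading genes, 2 could be tested. H2-Oa, a chain of DO, rose in both sexes: it read -3.02 and -3.31 in male KO against -4.32 and -4.48 in male WT, and -2.93 and -2.66 in female KO against -3.87 and -3.86 in female WT. The groups did not overlap in either sex, and male WT replicate 2 was not well above background. The differences were 1.23 ± 0.15 in males (adjusted p = 0.00673) and 1.07 ± 0.15 in females (adjusted p = 0.0163, SE, limma). They shrank to 0.27 and 0.29 with normexp background correction (limma, adjusted p = 0.0778 and 0.0721). The offset of 50 units in that setting exceeds the processed signal of H2-Oa on every array (8.09 to 32.1 units), so shrinkage was built in. The female call was also lost without the filter (adjusted p = 0.0575), without female KO replicate 2 (0.0676) and without female WT replicate 2 (0.0503). H2-Ob, its partner, has 2 probes, of which the dimmer was well above background on no array. The brighter was not well above background on male WT replicate 2 either. That brighter probe read -2.99 and -3.36 in male KO against -4.40 and -4.52 in male WT, and -3.11 and -3.20 in female KO against -4.44 and -3.40 in female WT. Those differences of 1.28 and 0.77 did not pass (adjusted p = 0.0641 and 0.220 in limma), although they passed in both sexes without female WT replicate 2. No probe of H2-Eb2 or H2-DMb2 was well above background on any array, and H2-Ea and H2-Ea-ps were not analysed here.

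Among 29 genes that act on Ciita or with it, 24 could be tested, and 3 rose in males and 2 in females while 1 fell in females. Of all features, 6.01% rose in males, and 3.48% rose and 2.49% fell in females. Irf1, a factor that interferon uses to switch on Ciita, read 3.35 and 3.29 in male KO against 2.72 and 2.66 in male WT, and 3.21 and 3.19 in female KO against 2.61 and 2.43 in female WT. It rose by 0.63 ± 0.10 in males (adjusted p = 0.0174) and by 0.67 ± 0.10 in females (adjusted p = 0.0214, SE, limma). Il4ra, the receptor chain for interleukin 4, rose by 0.53 in males (adjusted p = 0.0243) and 0.58 in females (adjusted p = 0.0282). Crebbp, a histone acetyltransferase that Ciita recruits, read 3.92 and 4.01 in male KO against 2.17 and 2.05 in male WT and rose by 1.85 ± 0.40 (adjusted p = 0.0386), while its female arrays overlapped (4.64 and 4.33 in KO, 4.42 and 3.11 in WT). Zxdc, a zinc finger partner of Ciita in human cells, fell by 0.64 in females (adjusted p = 0.0385). The male Irf1 call was lost when any 1 of the 4 male arrays was left out (adjusted p up to 0.101) and the female Il4ra call whichever array was left out (up to 0.112). The male Il4ra and Crebbp calls were lost without any 1 male or female KO array or male WT array, the female Irf1 call without any KO array, male WT replicate 2 or female WT replicate 2, and the Zxdc call without any array but female WT replicate 1. Adjusted p reached at most 0.176 in these fits, and the directions stayed. None of these 6 calls held without the filter on dim probes (adjusted p from 0.0670 to 0.120). When a gene's probes were averaged instead, the Il4ra differences were 0.05 in males and 0.22 in females (adjusted p = 0.806 and 0.276), the male ones of Crebbp and Irf1 were 0.85 and 0.41 (0.0749 and 0.0917), and that of Zxdc in females was -0.49 (0.0608). With normexp, Zxdc in females was -0.41 and still passed.

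The proteins that hold Ciita on DNA showed no call. Rfxap differed by 0.23 in males and -0.25 in females, Nfya by -0.05 and -0.09, Nfyb by -0.33 and -0.41, Nfyc by 0.11 and -0.06 and Creb1 by -0.25 and -0.30. Rfx5 was below background on both male WT arrays, and Rfxank differed by -0.08 in males and by 2.08 in females (adjusted p = 0.173). On the interferon side, Jak1 differed by -0.33 and -0.08, Jak2 by 0.04 and -0.21, Ifngr1 by 0.25 and -0.08, Ifngr2 by 0.17 and -0.20 and Socs1 by -0.04 and -0.11. None of these passed in either sex, nor did Nlrc5 (-0.63 and -0.46), the class I counterpart of Ciita, the repressor Prdm1, the factors Irf2 and Irf8, the receptor Il10ra or the acetyltransferases Ep300 and Kat2b. Irf4 and Il10 were above background on no array, Ifng on 1, and these 3 were not tested, nor were Spi1 and Hdac2.

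In the 19 genes of endosomal processing and class II trafficking, 3 rose and 1 fell in males, and 1 rose and 1 fell in females. Of all features, 6.01% rose and 4.56% fell in males, and 3.48% rose and 2.49% fell in females. Ctsz, a lysosomal carboxypeptidase, read 5.97 and 5.95 in male KO against 5.05 and 4.99 in male WT, and 5.94 and 5.92 in female KO against 5.19 and 4.83 in female WT. It rose by 0.94 ± 0.14 in males (adjusted p = 0.0122) and by 0.92 ± 0.14 in females (adjusted p = 0.0197, SE, limma). The ubiquitin ligases that take class II off the surface moved in opposite ways: Marchf1 rose by 0.62 in males (adjusted p = 0.0280), and Marchf8 fell by 0.62 in males (adjusted p = 0.0155) and by 0.48 in females (adjusted p = 0.0448). The protease Ctsb rose by 0.46 in males (adjusted p = 0.0490), and Ctss, which trims the invariant chain, differed by 0.14 in each sex. The Ctsb call and the female Marchf8 call were lost whichever array was left out (adjusted p up to 0.224). The male Marchf8 call was lost when any 1 male array was left out, the Marchf1 call without any KO or male WT array, and the Ctsz calls without either male KO array and, in males, male WT replicate 2 or, in females, either female KO array (adjusted p up to 0.148). Without the filter on dim probes, the male Ctsz call alone of these 6 held. None of 18 class I presentation genes and none of 6 costimulation genes passed in either sex, 4 and 5 class I genes having an unadjusted p under 0.05 in males and females and 1 costimulation gene in each, against 27% of all features in males and 25% in females. Of the 18 class I genes, 12 had a positive difference in males and 13 in females. The smallest adjusted p among them was that of the immunoproteasome subunit Psmb9 in females, which read 2.49 and 2.63 in female KO against 1.88 and 1.85 in female WT, a difference of 0.70 (adjusted p = 0.0657). The class I chain H2-K1 read 7.45 and 7.41 in male KO against 7.79 and 7.89 in male WT, a difference of -0.41 (adjusted p = 0.0872).

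**Figure D4:**
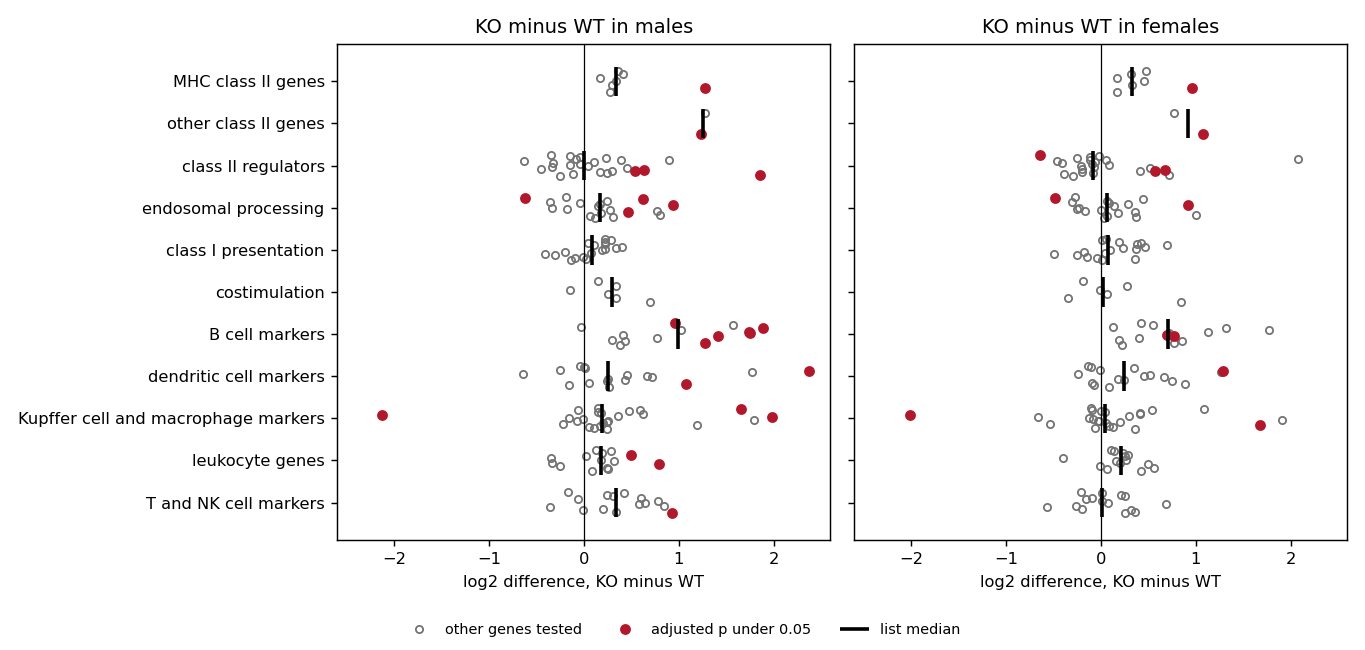
Log2 difference between KO and WT (horizontal axis) for each tested gene of 11 lists, in males on the left and in females on the right, with filled points for adjusted p under 0.05 and a bar at each list's median. The median of the B cell markers lies at 0.99 in males and 0.71 in females, that of the MHC class II genes at 0.34 and 0.33, and the class I and regulator lists lie near 0.

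Several genes of class II-bearing cells moved in the same direction as Ciita. Of 14 B cell markers tested, 6 rose in males (Ms4a1, Cd79b, Fcer2a, Fcmr and Spib among them) and 2 in females (Cd79b and Cr2), with none lower. Of all features, 6.01% rose in males and 3.48% in females. The list's median was 0.99 in males and 0.71 in females. The summed linear level of the 14 was 3.95 to 4.01 in male KO against 2.13 to 2.62 in male WT, and 4.10 to 4.30 in female KO against 2.55 to 2.66 in female WT, without overlap in either sex. Cd79b, part of the B cell receptor, read -0.31 and -0.46 in male KO against -1.64 and -1.96 in male WT, and -0.30 and -0.21 in female KO against -1.05 and -0.99 in female WT. It rose by 1.41 ± 0.14 in males (adjusted p = 0.00322) and by 0.77 ± 0.14 in females (adjusted p = 0.0328, SE, limma). Ms4a1, which encodes CD20, rose by 1.89 in males (adjusted p = 0.0140). Fcer2a and Spib were not well above background on either male WT array. On the processed signal, their male rises were at least 2.32-fold and at least 1.85-fold. Pax5, the factor that fixes B cell identity, differed by -0.03 in males and 0.13 in females. The male Cd79b call held whichever array was left out. The male calls of Ms4a1, Fcer2a and Fcmr were lost without either male KO array or male WT replicate 2 (adjusted p up to 0.0869). The Spib call, the female Cd79b call and the Cr2 call were lost without 6, 6 and 7 of the 8 arrays, with adjusted p up to 0.179. With normexp background correction the male differences shrank to 0.53 for Ms4a1, 0.54 for Fcmr and 0.88 for Cd79b, which still passed, and to 0.30 for Fcer2a (adjusted p = 0.0507) and 0.17 for Spib (0.295), and the female Cr2 difference to 0.30 (0.0529). The Spib call was also lost with quantile normalization (0.0754), and without the filter on dim probes the Spib call and the female Cd79b and Cr2 calls were lost (0.0999 to 0.104). None of the defining B cell markers was below background on all arrays. Their part in the Ciita rise was not tested.

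Of 17 dendritic cell markers tested, Ly6d rose in both sexes (2.38 in males, 1.29 in females) and Ccr7 in males (1.07), with a list median of 0.25 and 0.24. Of all features, 6.01% rose in males and 3.48% in females. The integrin Itgax was higher by 1.77 and 1.26 without passing (adjusted p = 0.0574 and 0.148 in limma), and it passed in both sexes without male WT replicate 1. Flt3 differed by 0.72 and 0.67, Zbtb46 by -0.04 and -0.13, Clec9a by 0.25 and 0.18, Cd209a by 0.05 and -0.09 and Siglech by 0.00 and -0.10, none of them past the test, and Xcr1 was below background on every array. The summed level of the 17, which the brightest probes set, was 231 to 240 in male KO against 239 to 246 in male WT, and 188 to 221 in female KO against 214 to 215 in female WT. Their mean log2 level ran the other way, at -0.74 and -0.89 in male KO against -1.17 and -1.31 in male WT, and -0.71 and -0.68 in female KO against -1.11 and -0.996 in female WT. With normexp background correction Ly6d differed by 1.44 and 0.85 and Ccr7 by 0.46 in males.

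Of 24 Kupffer cell and macrophage markers, Ly6c2 (1.98) and Trem2 (1.66) rose in males, and Ccr2 rose in females, on the processed signal by at least 1.95-fold. In females Ly6c2 differed by -0.66 and Trem2 by 1.09, neither past the test. In WT livers Ly6c2 was lower in males (-2.02), the 1 call between the sexes in this list, against 0.365% of all features lower. Of all features, 6.01% rose in males and 3.48% in females. With normexp background correction Trem2 differed by 0.90, and the Ccr2 call was lost (0.20, adjusted p = 0.145). None of the defining Kupffer cell markers passed: Adgre1 differed by 0.25 and 0.36 in males and females, Clec4f by -0.07 and -0.02, Cd5l by 0.20 and 0.05, Vsig4 by 0.15 and -0.10, Timd4 by -0.06 and -0.09 and Csf1r by 0.26 and -0.03. All 6 were well above background on all 8 arrays. The summed level of the 24, which the brightest probes set, was 153 to 176 in male KO against 126 to 136 in male WT, and 150 to 170 in female KO against 163 to 164 in female WT. Their mean log2 level was 1.41 and 1.24 in male KO against 0.97 and 1.04 in male WT. In females it was 1.28 and 1.46 in KO against 1.18 and 1.26 in WT.

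Ptprc, the pan-leukocyte CD45, rose by 0.50 in males (adjusted p = 0.0226) and Coro1a by 0.79, 2 of 14 general leukocyte genes, and none of the 14 passed in females. The summed level of these was 33.8 to 35.8 in male KO against 30.6 to 31.7 in male WT, and 37.8 to 39.0 in female KO against 33.0 to 34.6 in female WT. Among 14 endothelial markers, 13 had a positive difference in males and 12 in females, the sinusoidal receptors Stab2 (0.56) and Lyve1 (1.09) rose in males and Vwf rose in both sexes (2.65 and 1.15), and their sum was 98.3 to 104 in male KO against 69.0 to 72.1 in male WT, and 97.8 to 98.9 in female KO against 84.5 to 90.5 in female WT. Sdc1, a plasma cell marker that hepatocytes also express, rose in both sexes (1.50 and 1.37), 1 of 5 plasma cell markers tested. In the T and NK cell list 1 of 15 rose in males (Cd2, 0.93) and 0 in females, where 2 had an unadjusted p under 0.05. For neutrophils 1 of 7 rose in males (Lcn2, 1.80) and 0 in females, where 1 had an unadjusted p under 0.05. Stellate cell markers gave 2 of 10 higher in males (Pdgfrb and Colec11) and 1 of 10 lower in females (Lrat, -1.25), and cholangiocyte markers 1 of 8 higher in each sex (Prom1, on the processed signal by at least 4.98-fold in males). Of 15 hepatocyte genes, Asgr1 and F2 rose and Ttr fell in both sexes. Beside all these counts, 6.01% of all features rose and 4.56% fell in males, and 3.48% rose and 2.49% fell in females. An unadjusted p under 0.05 was reached by 25% of all features in females. In all, 25 of 33 male calls and 14 of 18 female calls of genes outside the members were lost when some 1 array was left out, and 17 of the 33 and 14 of the 18 were lost without the filter on dim probes. With normexp the differences of Cd2 (0.32), Prom1 (0.81 in males, 0.99 in females) and Lrat (-0.75) shrank and still passed, and with the mean of its probes Ttr stood at -1.01 and -0.99.

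Likeness to the members was measured as the root mean square difference from their mean profile over the 8 arrays, each gene centred on its own mean. Of 13959 candidate genes, Slc38a1 (0.0466), Hrh4 (0.0526), Sqor (0.0620), 2410006H16Rik (0.0622) and Stat3 (0.0654) came nearest, against a median of 0.309 over the candidates and 0.236 for a flat profile. Slc38a1, an amino acid transporter, differed between KO and WT by 0.38 in males and 0.41 in females, and Stat3, a cytokine-activated transcription factor, by 0.50 and 0.37. Hrh4, a histamine receptor, differed by 0.54 and 0.39, Sqor, a mitochondrial sulfide oxidase, by 0.49 and 0.41 and 2410006H16Rik by 0.52 and 0.43. They share with the members the same 8 hybridisations. Each had its highest value on female KO replicate 1, where the members' mean profile also peaks. Being picked for nearness to that profile favours this peak and their KO differences, so neither is a separate result. Of the members themselves, H2-Eb1 was nearest to the mean profile (0.0562) and Ciita farthest, at 0.367.

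**Figure D5:**
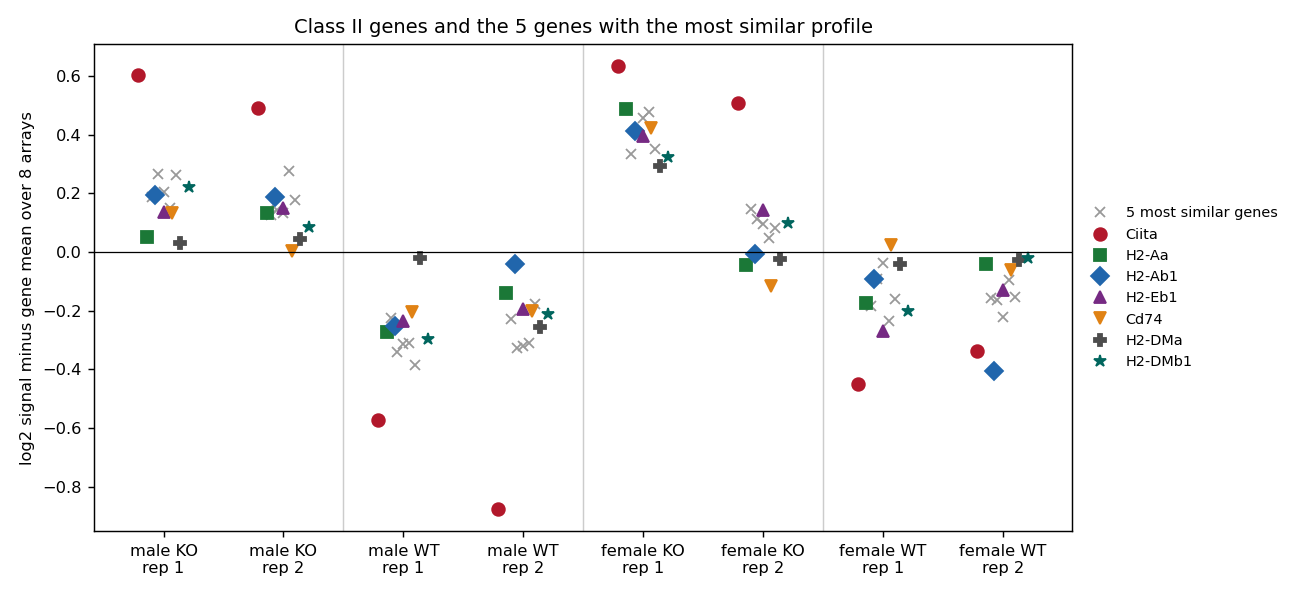
Log2 signal of the 7 members (coloured) and of the 5 genes nearest to their mean profile (grey crosses), each minus its own mean over 8 arrays (vertical axis), on each array in the order male KO, male WT, female KO and female WT. All members are above 0 on both male KO arrays and below 0 on both male WT arrays, female KO replicate 1 is the highest array throughout, and Ciita lies farthest from 0 on 7 of the 8 arrays.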

How the data were processed

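Total RNA of whole liver, 8 samples, was labelled with Cy3 and hybridised to 1-colour arrays, per the labels' protocols. The authors deposited processed signal intensities of Agilent Feature Extraction (11.5.1.1 per the file headers, 9.1.3.1 per the submitters' processing notes) and raw median intensities of spots and background. The deposited value table holds log2 values that differ from log2 processed signal by a fixed offset for each array, within 0.01 for 99.9% to 100% of probes. Its medians ran from -3.25 to -3.13, and it was not centred by gene.

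Here, 55 to 139 outlying spots an array were left out, spots of 1 probe were averaged, and log2 processed intensities were set relative to the 75th percentile of their array. Accessions gave names to 32989 of 56605 probes (22907 symbols) through the RefSeq list of GRCm38.p6. Probes had to read well above background on all arrays of some group (33580 did), and the brightest kept probe stood for its gene. A model of 4 group means was fitted to the 8 arrays in limma 3.58.1 under R 4.3.3 (lmFit, eBayes, 4 residual and 2.07 prior degrees of freedom), with Benjamini-Hochberg adjustment of p over 26551 genes and unnamed transcripts (15518 with a symbol). The steps were tested on simulated data. Precision is limited by the number of arrays: the SE of a difference had a median of 0.162 (log2).

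An "at least" fold sets the dim group at the lowest signal well above background on each array where the probe read below it. It applies to the processed signal only, leaves out the spread between arrays, and is not a bound under normexp background correction. The members, gene lists and rule for named genes were chosen with earlier results of these data known: all members, other class II genes and regulators are named apart from those not reported here, and elsewhere up to 4 genes of a list with the smallest adjusted p plus its defining markers. Named outside the rule, after their values were seen, were other genes that passed. The 5 genes nearest to the members' mean profile were taken from tested genes with a symbol. The X box consensus was settled after its matches in these promoters were seen. Replicate numbers did not pair the samples. Alternatives covered the normalization, background correction, dim-probe filter, choice of probe, value table, arrays fitted and each array left out. The normexp background correction used an offset of 50 units, which by itself shrinks the log2 differences of dim probes. Tables and plots were made with matplotlib 3.10.9, numpy 2.4.6 and pandas 2.3.3 in Python 3.11.15.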

Additional observations from a re-analysis of the deposited data

How the results depend on the processing

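The KO minus WT differences of the 7 members kept their direction in 123 of 123 combinations of gene and setting in males and 122 of 123 in females, the exception being Cd74 without female KO replicate 1 (-0.10 to 0.44 with each array left out). The count of members that rose stayed at 1 in males, and in females it was 2 with normexp background correction, 0 without the filter on dim probes, 0 in a fit of only the 2 groups compared, and 0 to 1 with each array left out. With 2 arrays a group, a fit without 1 array assumes that the lone array varies like the other groups. Replicate numbers did not pair the samples (correlations of same-numbered deviations from -0.00 to 0.10). With a replicate block, 1 member rose in each sex (Ciita, adjusted p = 0.00964 and 0.0293), and the counts of all features in the interaction became 11 higher and 14 lower, against 27 and 26 without the block.

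Over all features, KO minus WT gave 1597 higher and 1212 lower in males, but 775 and 454 without the filter, and 730 to 1623 and 305 to 1271 with each array left out. In females it gave 923 higher and 660 lower, but 383 and 146 without the filter, 306 and 89 with only the 2 groups, 1261 lower with normexp, and 462 to 956 and 100 to 839 with each array left out. In WT livers, 145 features were higher and 97 lower in males, but 374 and 249 with normexp, 59 and 33 without the filter, 33 and 18 with only the 2 groups, and 48 to 372 and 31 to 678 with each array left out. In KO livers the counts of 14 and 5 became 8 and 2 with normexp, 1 and 0 with probes well above background on all arrays, 8 and 3 with only the 2 groups, and 8 to 172 and 3 to 189 with each array left out. The interaction counts became 6 and 5 without the filter, 11 higher with probes well above background on all arrays, 46 lower with normexp, and 12 to 399 and 15 to 246 with each array left out. No member was called in the sex comparisons or the interaction in any setting.

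The small sex differences turned in sign in places. In WT livers, H2-Ab1 was -0.056 with the mean of its probes, -0.10, -0.028 and -0.19 on its 3 dimmer probes and -0.055 to 0.26 with each array left out, H2-Eb1 was 0.0098 in the value table and -0.085 to 0.055 with each array left out, and H2-DMa was -0.22 to 0.014. In KO livers, Ciita was 0.0015 with the mean of its probes, 0.026 on its second probe and -0.086 to 0.040 with each array left out, against -0.40 to 0.14 for H2-Aa, -0.22 to 0.20 for H2-Ab1, -0.26 to 0.062 for H2-DMa, -0.17 to 0.056 for H2-DMb1 and -0.35 to 0.19 for Cd74. The interaction was 0.0018 and 0.031 on 2 probes of H2-Ab1, and -0.010 for H2-DMa both with quantile normalization and in the value table. With each array left out it ran from -0.30 to 0.23 for H2-Aa, -0.32 to 0.10 for H2-Ab1, -0.24 to 0.014 for H2-Eb1, -0.15 to 0.17 for H2-DMa, -0.027 to 0.20 for H2-DMb1 and -0.17 to 0.37 for Cd74. The cause was not tested.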
